A study of Caenorhabditis elegans with 12 samples.

Results

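The 3 transcription factor genes *ets-5*, *egl-13* and *daf-19* were followed in RNA from sorted BAG neurons. They were chosen by gene symbol for their known roles in BAG and cilia fate, and are 3 of the 46766 genes with a TPM value (a level scaled to the library total and corrected for gene length), of the 22542 genes with a normalized count, and of the 12096 genes that passed the filter on low values. All 3 passed it. The strain under study was the double mutant *arcp-1(db1082); npr-1(ad609)* (*arcp-1* mutants below, 6 replicates), in which *arcp-1*, the gene of an ankyrin-repeat protein of sensory endings, carries a premature stop. It was set against *npr-1(ad609)* animals (controls below, 6 replicates). Both genotypes carry the *ad609* mutation in the neuropeptide receptor gene *npr-1*, and both carry the transgene *ynIs64[flp-17p::gfp]*, by whose GFP the BAG neurons were sorted. All animals were adults on day 1, kept at 20 °C, and each of the 12 libraries was made with Smart-seq2 from about 4000 sorted cells. The comparison bears on whether loss of *arcp-1* went with a change in the factors that set their identity.

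BAG neurons are a pair of ciliated head neurons that sense CO2 and falling O2. A neuron of this kind acquires its identity from terminal selectors, transcription factors that switch on the receptors, channels and peptides of the mature cell and keep them on. ETS-5, of the ETS family, is needed for the BAG expression of the CO2 receptor GCY-9, of further guanylyl cyclases and of the peptide gene *flp-17*. EGL-13, a SoxD protein, acts in the fate of BAG and of the O2-sensing URX neurons. DAF-19, the RFX protein of *C. elegans*, drives the genes of cilium assembly through a promoter element called the X-box, and animals without it lack sensory cilia. It also has isoforms with roles in neurons without cilia, which counts per gene cannot separate.

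*ets-5* (WBGene00016600) lies on the minus strand of chromosome X at 5079773 to 5084489 of WS255, with 5 annotated transcripts. *egl-13* (WBGene00001182) lies on the plus strand of the same chromosome at 5663837 to 5674060, with 13 transcripts. *daf-19* (WBGene00000914) lies on the minus strand of chromosome II at 10157537 to 10169346, with 5 transcripts. Counting took no account of strand, so overlapping genes matter: within its deposited position *ets-5* shares 147 exonic bases with the antisense gene C42D8.12, which itself averaged 3.90 normalized counts in *arcp-1* mutants and 4.58 in controls. The longer Ensembl gene model of *ets-5* runs past that position and there also shares 76 bases with *cal-5*, on the same strand, which averaged 322 normalized counts in *arcp-1* mutants and 272 in controls. *daf-19* shares 21 bases with a piRNA gene, and *egl-13* overlaps no annotated exon of another gene.

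Recovered reads ranged from 374550 to 8683395 per *arcp-1* mutant library and from 540884 to 7594719 per control library, and 4 libraries had fewer than 2000000. The mutated gene, *arcp-1* itself (WBGene00009375), averaged 2477 ± 1213 normalized counts in *arcp-1* mutants and 7947 ± 3109 in controls (SD, n = 6 each), a log2 fold change of -1.76 ± 0.40 (SE, limma adjusted p = 0.0308), and 5 of 6 mutant libraries were below every control. That call was lost in 8 of 12 fits that left out a single library (adjusted p of up to 0.0834), namely mutant replicates 2, 4 and 6 and control replicates 2 to 6. Summed over the 10 genes listed for BAG, expression was lowest in replicate 1 of both genotypes, at 2255 TPM in the *arcp-1* mutant and 2146 TPM in the control, against 3993 to 8225 TPM in the other 10 libraries. The same 2 libraries had the highest sums of 5 pharyngeal muscle markers, 251 TPM in the mutant and 374 TPM in the control, against 46.6 to 131 TPM elsewhere. They had the lowest sums of 7 body wall muscle markers, 2838 TPM in the mutant and 2321 TPM in the control, against 4068 to 10645 TPM elsewhere. That came from the myosin heavy chain gene *unc-54* alone, whose lowest values were 2313 TPM in *arcp-1* mutants and 1858 TPM in controls. The other 6 of these markers, summed, ranged from 327 to 524 TPM over all libraries and were not low in these 2. Sums of coelomocyte markers were also the lowest in the same 2 libraries, at 0.31 TPM in the mutant and 0 TPM in the control, against 0.59 to 73.1 TPM elsewhere. The mutant replicate 1 also had the highest sums of germline (433 TPM), hypodermis (5617 TPM) and glia (177 TPM) markers, and the control replicate 1 the highest sum for URX, AQR and PQR neurons (3172 TPM, of which *flp-8* gave 3077 TPM). Body wall muscle markers, which BAG should lack, were present in every library, with medians of 5872 TPM in *arcp-1* mutants and 6265 TPM in controls (2-sided exact permutation p = 0.758). Most of that sum was *unc-54* (5665 ± 2719 TPM in *arcp-1* mutants and 6322 ± 2924 TPM in controls). The other 6 muscle markers together held 428 ± 88.9 TPM in *arcp-1* mutants and 449 ± 62.8 TPM in controls. The source of the *unc-54* RNA was not tested, so the 7-gene sum is no measure of muscle RNA. Fewer BAG cells in a sample and less RNA per cell cannot be told apart in these libraries.

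*ets-5* was the most abundant of the 3 factors by deposited TPM. It was at 141, 601, 578, 655, 773 and 762 TPM in *arcp-1* mutant replicates 1 to 6, and at 251, 648, 664, 724, 759 and 708 TPM in the control replicates. In both genotypes replicate 1 stood far below the other 5 libraries, which lay close together. By mean TPM *ets-5* ranked 202 of 46766 genes in *arcp-1* mutants (585 ± 232 TPM) and 186 in controls (626 ± 188 TPM, SD, n = 6 each). The TPM of *ets-5* rests on a gene length of 747 bases, short of the 2026 bases of its annotated exons, and per kilobase of annotated exon it ranked 554 of 22391 genes in *arcp-1* mutants and 501 in controls.

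*daf-19* came next, with mean TPM ranks of 413 in *arcp-1* mutants (284 ± 156 TPM) and 334 in controls (323 ± 93.6 TPM). The libraries held 112, 254, 216, 236, 573 and 315 TPM in *arcp-1* mutants, and 192, 394, 226, 324, 391 and 410 TPM in controls. The *arcp-1* mutants spread more widely, since replicate 1 was below and replicate 5 above every control.

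*egl-13* was the lowest, ranking 1389 in *arcp-1* mutants (82.6 ± 32.96 TPM) and 1017 in controls (108 ± 45.5 TPM). It was at 44.8, 51.6, 76.0, 96.1, 135 and 92.1 TPM in *arcp-1* mutants, and at 41.8, 72.8, 113, 109, 152 and 161 TPM in controls. The genotypes overlapped over most of their range. The number of reads limited these values little: *egl-13*, the least read, had between 52 and 1992 reads per library, a counting error of 13.9% to 2.24%, and *ets-5* and *daf-19* had at least 108 and 170 reads.

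**Figure D1:**
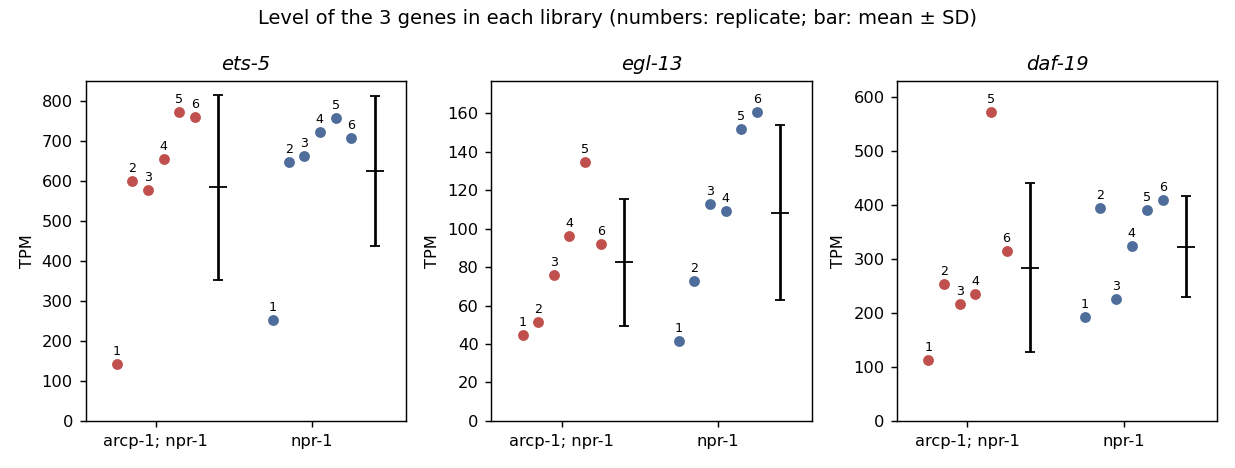
Level of *ets-5*, *egl-13* and *daf-19* in TPM in each library, with *arcp-1; npr-1* libraries in red and *npr-1* libraries in blue. Points are libraries numbered by replicate, and bars give mean ± SD (n = 6). Replicate 1 of both genotypes lies low for *ets-5* (141 TPM in *arcp-1; npr-1* and 251 TPM in *npr-1*), and the genotypes overlap for each gene.

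The order of the 3 genes by TPM, *ets-5* above *daf-19* above *egl-13*, was the same in 12 of 12 libraries. *ets-5* was 2.14 ± 0.67 times *daf-19* in *arcp-1* mutants and 1.97 ± 0.57 times in controls (exact permutation p of the log2 ratio = 0.701), and 7.20 ± 2.82 times *egl-13* in *arcp-1* mutants against 6.14 ± 1.56 times in controls (p = 0.602). The place of *ets-5* above *daf-19* depended on the gene length used. The length behind the deposited TPM was 747 bases for *ets-5*, 2661 for *egl-13* and 3061 for *daf-19*, whereas the annotated exons within the deposited positions hold 2026, 3075 and 3123 bases. Per kilobase of annotated exon, *daf-19* averaged 451 ± 235 normalized counts in *arcp-1* mutants and 502 ± 118 in controls, and *ets-5* averaged 351 ± 139.3 in *arcp-1* mutants and 362 ± 85.9 in controls, so that *daf-19* was above *ets-5* in 9 of 12 libraries. *egl-13* remained the lowest per kilobase, at 116 ± 44.4 in *arcp-1* mutants and 147 ± 55.6 in controls.

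For none of the 3 factors was a difference between the genotypes detected. In normalized counts, *ets-5* averaged 711 ± 282 in *arcp-1* mutants and 734 ± 174 in controls, *egl-13* averaged 357 ± 136 in *arcp-1* mutants and 452 ± 171 in controls, and *daf-19* averaged 1407 ± 734 in *arcp-1* mutants and 1569 ± 367 in controls (SD, n = 6 each). limma on log2(normalized count + 1), with Benjamini-Hochberg adjustment over 12096 genes, called 0 of the 3 past an adjusted p of 0.05. Over all genes 201 were called, or 1.66%, of which 161 were higher and 40 lower in *arcp-1* mutants, a count that became 329 without *arcp-1* mutant replicate 1 and 124 without *arcp-1* mutant replicate 6. At an unadjusted p under 0.05 the count of the 3 in this fit was also 0, where 10.4% of all genes passed in either direction, and edgeR and DESeq2 on recovered reads likewise called 0.

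The log2 fold change of *ets-5* was -0.18 ± 0.35 (SE), with a 95% interval of -0.93 to 0.57, or 0.525 to 1.49 times the control level (adjusted p = 0.915, exact permutation p = 0.775). Of the mutant libraries, 2 were above all controls and 1 was below all. Its sign rested on a single library, since without *arcp-1* mutant replicate 1 the log2 fold change was 0.19. For *egl-13* the log2 fold change was -0.34 ± 0.30, with an interval of -0.97 to 0.30, or 0.509 to 1.23 times the control level (adjusted p = 0.771, exact permutation p = 0.331), and 2 mutant libraries were below all controls in normalized counts. For *daf-19* it was -0.28 ± 0.30, with an interval of -0.92 to 0.36, or 0.530 to 1.28 times the control level (adjusted p = 0.821, exact permutation p = 0.448). Each interval includes no change, a reduction to near its lower bound and an increase to near its upper bound. No difference within it is excluded by this fit. Over the 26 alternative settings none of the 3 genes was called, and *egl-13* was lower in *arcp-1* mutants under every one of them, with log2 fold changes of -0.51 to -0.18.

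**Figure D2:**
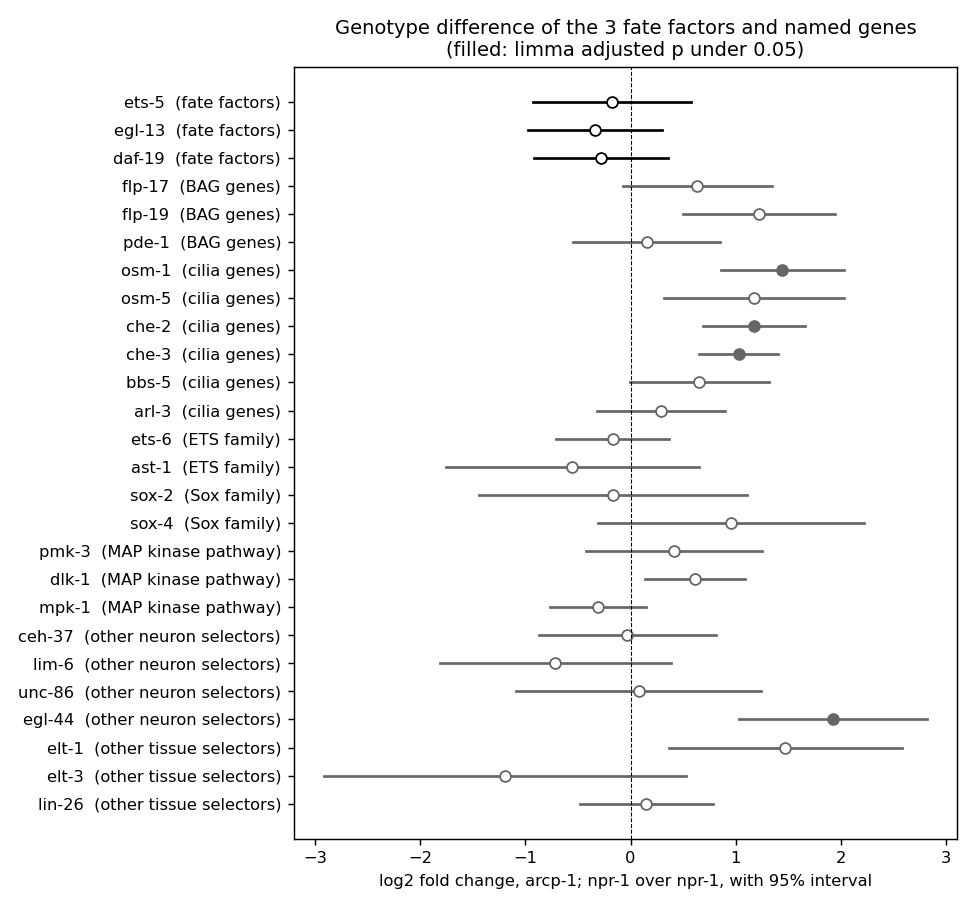
Log2 fold change (*arcp-1; npr-1* over *npr-1*, limma) with its 95% interval for the 3 fate factors and the other named genes of the lists, one row per gene. Filled points passed an adjusted p of 0.05. The intervals of *ets-5*, *egl-13* and *daf-19* span 0, and *osm-1*, *che-2*, *che-3* and *egl-44* are filled.

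The 3 genes varied more between replicates than most genes of their level. The SD within genotypes on the log2 scale was 0.72 for *ets-5*, 0.59 for *egl-13* and 0.59 for *daf-19*, larger than in 84.6%, 77.6% and 72.2% of the genes within 0.5 log2 units of each level, whose median SDs were 0.42, 0.38 and 0.42.

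The replicate variation was shared among the factors and with the BAG genes. Between libraries, log2(TPM + 1) of *ets-5* correlated with that of *egl-13* (Pearson r = 0.76, Spearman rho = 0.79, permutation p of r = 0.00032, adjusted over 9 relations 0.00096, n = 12) and of *daf-19* (r = 0.81, rho = 0.77, adjusted p = 0.000495 by permutation). For *egl-13* and *daf-19* the values were r = 0.74 and rho = 0.69 (permutation p = 0.00552, adjusted 0.00828). Without the 2 libraries farthest from the median of the second gene, r was 0.74, 0.64 and 0.63 for these pairs. Within the 6 *arcp-1* mutant libraries r was 0.74, 0.84 and 0.84, and within the 6 controls 0.88, 0.75 and 0.66.

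Against the mean log2(TPM + 1) of the 10 BAG genes, r was 0.91 for *ets-5* (rho = 0.86, adjusted permutation p = 0.000495), 0.84 for *egl-13* (rho = 0.70, adjusted permutation p = 0.00117) and 0.76 for *daf-19* (rho = 0.57, adjusted permutation p of r = 0.00562, unadjusted p of rho = 0.0595). The 2 libraries farthest from the median were replicate 1 of each genotype, those with the highest pharyngeal muscle sums and the lowest *unc-54* levels. Without them r was 0.67, 0.64 and 0.42. The relation of *daf-19* to the BAG genes thus rested largely on those 2 libraries. Within *arcp-1* mutants r with the BAG mean was 0.94 for *ets-5*, 0.81 for *egl-13* and 0.92 for *daf-19*, and within controls it was 0.90, 0.95 and 0.58. With the logarithm of the recovered reads, r was -0.07, 0.03 and 0.11 (adjusted permutation p = 0.925 for each). The part of the other tissues' RNA in the shared variation was not tested.

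**Figure D3:**
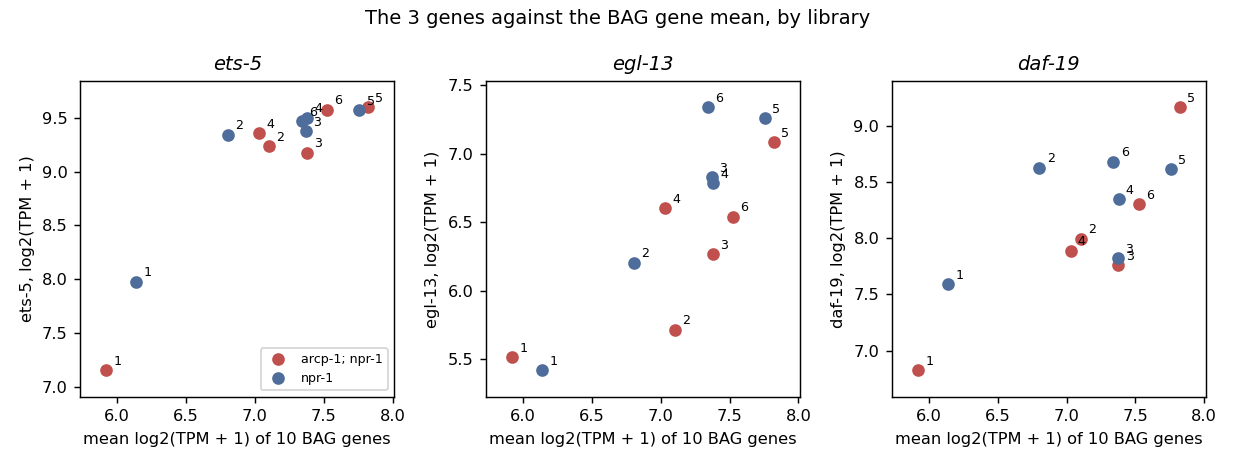
Log2(TPM + 1) of *ets-5*, *egl-13* and *daf-19* against the mean log2(TPM + 1) of 10 BAG genes, one point per library numbered by replicate, with *arcp-1; npr-1* in red and *npr-1* in blue. Replicate 1 of both genotypes sits at the low end of both axes, and r over the 12 libraries is 0.91, 0.84 and 0.76.

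The levels were next taken relative to the BAG genes of the same library. The BAG mean itself was 7.13 ± 0.66 in *arcp-1* mutants and 7.13 ± 0.57 in controls on the log2(TPM + 1) scale (exact permutation p = 0.987). *ets-5* was above it by 1.89 ± 0.38 in *arcp-1* mutants and 2.08 ± 0.26 in controls, a difference of -0.19 (exact permutation p = 0.348). *daf-19* was above it by 0.86 ± 0.31 in *arcp-1* mutants and 1.15 ± 0.49 in controls, a difference of -0.29 (p = 0.210). *egl-13* stood at -0.84 ± 0.39 in *arcp-1* mutants and -0.49 ± 0.25 in controls, a difference of -0.35 (p = 0.0974), which passed an unadjusted 0.05 only in the absence of *arcp-1* mutant replicate 1 (-0.44, p = 0.0476). Relative to the 3 guanylyl cyclase genes *gcy-9*, *gcy-31* and *gcy-33* alone, the differences were -0.03 for *ets-5*, -0.19 for *egl-13* and -0.13 for *daf-19* (exact permutation p = 0.935, 0.511 and 0.734).

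The genes of BAG sensing and signalling, several of which need ETS-5, showed no common direction. Of 10 BAG genes, 10 were tested and limma called 0, where 1.66% of all genes were called. Of the 10, 5 were higher and 5 lower, with a median log2 fold change of -0.07, against -0.02 over all genes. At an unadjusted p under 0.05 the count was 1 of 10, where 10.4% of all genes passed, edgeR called 0 and DESeq2 1, and without *arcp-1* mutant replicate 1 limma called 1. The gene called by DESeq2 (adjusted p = 0.0233) and by limma without that library (adjusted p = 0.00965) was *flp-19*, which encodes FMRFamide-like peptides. It was called in 6 of 26 alternatives. It averaged 2939 ± 1507 TPM in *arcp-1* mutants and 1233 ± 572 TPM in controls, with 5 mutant libraries above every control in normalized counts and a log2 fold change of 1.22 (adjusted p = 0.103). *flp-17*, the BAG peptide gene whose promoter set the sort, averaged 1081 ± 377 TPM in *arcp-1* mutants and 730 ± 307 TPM in controls (log2 fold change 0.64, adjusted p = 0.559). The CO2 receptor gene *gcy-9* was at 425 ± 267 TPM in *arcp-1* mutants and 502 ± 273 TPM in controls, and *pde-1*, a Ca2+-activated phosphodiesterase gene, at 981 ± 473 TPM in *arcp-1* mutants and 857 ± 325 TPM in controls. *flp-10* was the lowest of the 10, at 2.84 TPM in *arcp-1* mutants and 4.08 TPM in controls. Also low were *tax-2* (28.7 TPM in *arcp-1* mutants and 26.4 TPM in controls), *tax-4* (24.0 and 28.1 TPM) and *glb-5* (19.8 and 33.9 TPM). The list is completed by *gcy-31* (246 and 326 TPM) and *gcy-33* (605 and 492 TPM). Each of the 10 genes has equal weight in the BAG mean used above.

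Genes of the cilium, the class that DAF-19 acts on, were examined next. The list was made by function and not from DAF-19 targets, and no test of a difference from *daf-19* was run. Of 60 listed genes of intraflagellar transport, the BBSome (a coat of ciliary membrane cargo) and the transition zone (the gate at the cilium's base), 59 were matched and 58 tested. Of these, 49 were higher and 9 lower in *arcp-1* mutants, so 84.5% were higher, against 47.8% of all genes, and their median log2 fold change was 0.53, against -0.02 over all genes. The fold change lay above that of *daf-19* for 54 of 58 (93.1%, against 69.9% of all genes) and above the upper end of its 95% interval for 36 (62.1%, against 25.1% of all genes). limma called 3 of 58 higher and 0 lower, where 1.33% of all genes were called higher and 0.331% lower, and 25 passed an unadjusted p of 0.05, where 10.4% of all genes did. Of these 25, 23 were higher, where 5.55% of all genes passed and were higher. The count of 3 became 24 without *arcp-1* mutant replicate 1, 23 without replicate 1 of both genotypes, and 0 with the 8 libraries of at least 2000000 reads. Those 8 include mutant replicate 1 and leave out mutant replicates 3 and 4 and control replicates 1 and 5.

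The 3 called genes belong to transport within the cilium. *che-3*, the heavy chain of the dynein that carries cargo back to the cilium base, was at 727 to 1408 normalized counts in *arcp-1* mutants and 531 to 641 in controls (log2 fold change 1.03 ± 0.18, SE, adjusted p = 0.00447). *che-2*, which encodes a particle subunit, was at 601 to 1131 in *arcp-1* mutants and 256 to 599 in controls (1.17 ± 0.23, adjusted p = 0.0118). For both genes all 6 mutant libraries were above all 6 controls in normalized counts, which was so in either direction for 1.95% of all genes. For *che-2* the margin was narrow, and in TPM its groups overlapped, with the lowest mutant library at 151 TPM and the highest control at 166 TPM. *osm-1*, another particle subunit, was at 898 to 3178 in *arcp-1* mutants and 538 to 1019 in controls (1.44 ± 0.28, adjusted p = 0.0105), with mutant replicate 1 within the control range. The most abundant cilia genes by TPM were *osm-5* (1277 ± 579 TPM in *arcp-1* mutants and 542 ± 216 TPM in controls, adjusted p = 0.226), *arl-3* (910 ± 389 TPM in *arcp-1* mutants and 718 ± 211 TPM in controls, adjusted p = 0.801) and *bbs-5* (785 ± 322 TPM in *arcp-1* mutants and 469 ± 121.97 TPM in controls, adjusted p = 0.483). At the other end, *nphp-2* and *mks-1*, of the transition zone region, had log2 fold changes of -0.66 and -0.57 (adjusted p = 0.317 and 0.404).

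Set beside the factors library by library, the mean log2(TPM + 1) of the 58 cilia genes was 6.78 ± 0.66 in *arcp-1* mutants and 6.30 ± 0.49 in controls. Relative to *ets-5* it stood at -2.39 to -1.65 in *arcp-1* mutants and at -3.03 to -2.66 in controls, so that the 6 mutant libraries were all above the 6 controls, replicate 1 included. Relative to *daf-19* it stood at -1.21 ± 0.33 in *arcp-1* mutants and -1.98 ± 0.31 in controls, and 5 of 6 mutant libraries were above every control. Relative to *egl-13* it stood at 0.49 ± 0.39 in *arcp-1* mutants and -0.34 ± 0.35 in controls, again with 5 of 6 above every control. Relative to the mean of the 10 BAG genes it stood at -0.35 ± 0.20 in *arcp-1* mutants and -0.83 ± 0.23 in controls, a difference of 0.48, with 3 of 6 mutant libraries above every control. These ratios were formed after the fold changes were known and are given without a test.

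**Figure D4:**
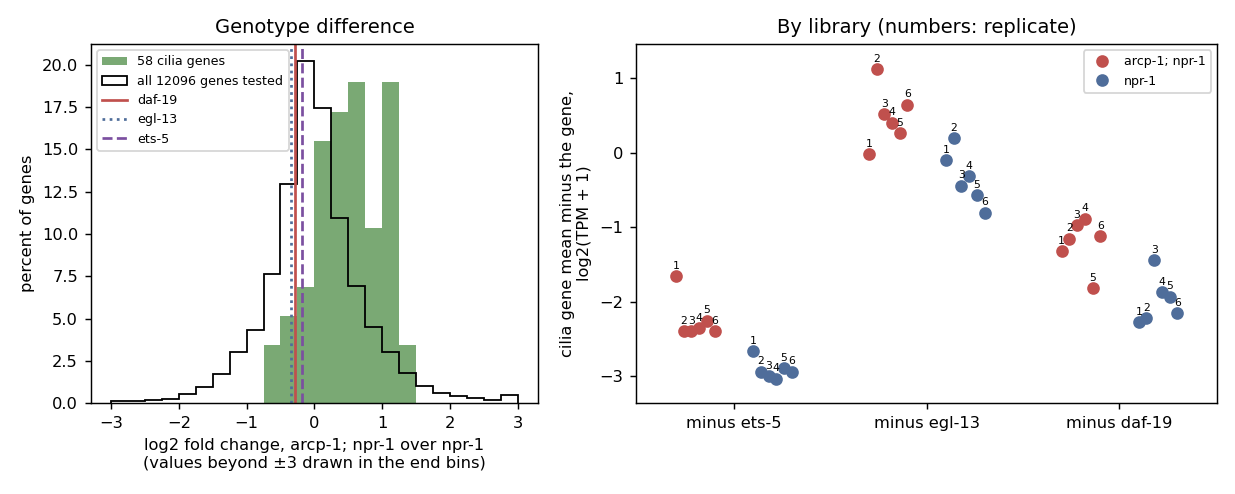
Left, the distribution of log2 fold changes (*arcp-1; npr-1* over *npr-1*) of 58 cilia genes in green and of all 12096 genes tested as a black outline, in percent of genes, with vertical lines at the 3 factors. Right, the mean log2(TPM + 1) of the cilia genes minus that of each factor in each library, with *arcp-1; npr-1* in red and *npr-1* in blue. The cilia genes centre on 0.53 and the factors lie at -0.34 to -0.18, and against *ets-5* the genotypes do not overlap.

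Within their own families *ets-5* and *egl-13* had the highest levels. Of 9 matched ETS genes, *ets-5* was the highest in 12 of 12 libraries, by 6.06 to 31.9 times the next, and made up 91.4 ± 7.20% of ETS family TPM in *arcp-1* mutants and 91.8 ± 5.66% in controls. Per kilobase of annotated exon, over the 7 ETS genes with a normalized count, *ets-5* was still the highest in 12 of 12 libraries, but by 2.24 to 11.8 times the next, with a share of 80.6 ± 12.96% in *arcp-1* mutants and 81.3 ± 10.5% in controls. The next by TPM were *ets-6*, at 28.6 ± 7.08 TPM in *arcp-1* mutants and 32.1 ± 6.70 TPM in controls, and *ast-1*, which specifies dopaminergic neurons, at 4.58 ± 3.21 TPM in *arcp-1* mutants and 7.41 ± 4.26 TPM in controls. Of 5 matched Sox genes, *egl-13* was the highest in 12 of 12 libraries, by 2.81 to 78.9 times the next, and made up 85.4 ± 9.21% of the family's TPM in *arcp-1* mutants and 87.7 ± 9.69% in controls. *sox-2*, a factor of neural progenitors, was at 6.09 ± 4.99 TPM in *arcp-1* mutants and 7.19 ± 4.47 TPM in controls, and *sox-4* at 3.10 ± 1.38 TPM in *arcp-1* mutants and 1.57 ± 1.22 TPM in controls. limma called 0 of 5 tested ETS genes and 0 of 4 tested Sox genes, where 1.66% of all genes were called. At an unadjusted p under 0.05 the count was 0 in both families, where 10.4% of all genes passed.

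**Figure D5:**
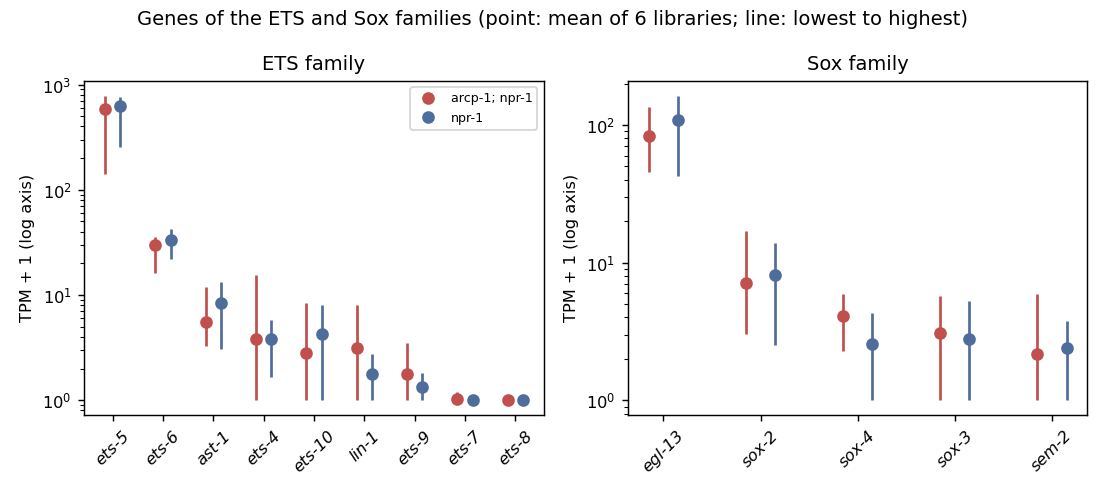
TPM + 1 on a log axis for the matched genes of the ETS family (left) and the Sox family (right), with *arcp-1; npr-1* in red left of *npr-1* in blue. Points are means of 6 libraries and lines run from the lowest to the highest library. *ets-5* (585 TPM in *arcp-1; npr-1* and 626 TPM in *npr-1*) and *egl-13* (82.6 TPM in *arcp-1; npr-1* and 108 TPM in *npr-1*) stand above every other gene of their family.

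Selectors of other neurons had mean TPM below those of the 3 factors in both genotypes, and the exception among single libraries was control replicate 1, in which *lim-6* (48.5 TPM) was above *egl-13* (41.8 TPM). Of 22 listed, 13 were tested, and the most abundant were the LIM homeobox gene *lim-6* (17.6 ± 13.5 TPM in *arcp-1* mutants and 27.1 ± 15.2 TPM in controls), the Otx homeobox gene *ceh-37* (14.9 ± 4.98 TPM in *arcp-1* mutants and 17.02 ± 7.53 TPM in controls) and the POU homeobox gene *unc-86* (11.8 ± 6.52 TPM in *arcp-1* mutants and 9.98 ± 4.82 TPM in controls). limma called 1 of the 13, where 1.66% of all genes were called. This was *egl-44*, which encodes a TEAD protein that acts in the fate of FLP neurons. It was at 8.60 ± 3.88 TPM in *arcp-1* mutants and 2.03 ± 0.80 TPM in controls (log2 fold change 1.93 ± 0.42, SE, adjusted p = 0.0264). All 6 mutant libraries were above all 6 controls, and 1.95% of all genes did not overlap in either direction. Its libraries held only 1 to 186 reads, and 17 of 25 alternatives called it, the others giving an adjusted p of up to 0.113. Leaving out mutant replicate 2, 5 or 6 or control replicate 5 or 6 ended the call (adjusted p of up to 0.0689). Its level was highest in *arcp-1* mutant replicate 1, the library with the most hypodermis and glia marker RNA, and the part of other tissues in it was not tested. The selectors of AWC neurons (*ceh-36*), ASE neurons (*che-1*) and URX (*ahr-1*) were under 1 TPM on average in both genotypes. They were picked after their values were seen, and which other neurons gave RNA was not tested. The selector of AFD neurons, *ttx-1*, was higher, at 5.09 ± 2.86 TPM in *arcp-1* mutants and 4.05 ± 7.16 TPM in controls. Summed markers of URX, AQR and PQR neurons had medians of 115 TPM in *arcp-1* mutants and 334 TPM in controls. Summed AWC markers reached at most 5.85 TPM in any library, and summed ASE markers 13.1 TPM.

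Selectors of other tissues were also low, with the epidermal factor *lin-26* at 23.2 ± 9.06 TPM in *arcp-1* mutants and 20.4 ± 5.16 TPM in controls, and the epidermal GATA factor *elt-1* at 10.6 ± 5.75 TPM in *arcp-1* mutants and 3.91 ± 2.35 TPM in controls. Of 8 listed, 5 were tested and limma called 0, where 1.66% of all genes were called. At an unadjusted p under 0.05 there were 2 of 5, against 10.4% of all genes, *elt-1* and the pharyngeal factor *pha-4* (adjusted p = 0.256 and 0.247).

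A further list held 6 genes of MAP kinase pathways, including the ETS family gene *lin-1* already counted above. All 6 were tested and limma called 0, where 1.66% of all genes were called. At an unadjusted p under 0.05 the count was 1 of 6, against 10.4% of all genes. *pmk-3*, a p38 MAP kinase gene that acts in BAG differentiation, was at 216 ± 99.7 TPM in *arcp-1* mutants and 154 ± 60.1 TPM in controls (log2 fold change 0.41, adjusted p = 0.792). *dlk-1*, the MAP kinase kinase kinase gene upstream of *pmk-3* in axon repair, was at 133 ± 34.1 TPM in *arcp-1* mutants and 88.3 ± 25.9 TPM in controls, with 5 mutant libraries above every control in normalized counts (log2 fold change 0.61, limma adjusted p = 0.274, and 0.0281 without *arcp-1* mutant replicate 1). *mpk-1*, the ERK gene, was at 42.2 ± 10.6 TPM in *arcp-1* mutants and 53.2 ± 15.3 TPM in controls (log2 fold change -0.31, adjusted p = 0.694).

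Finally, the genes whose libraries varied most like each factor were named by the Pearson r of log2(normalized count + 1) over 12 libraries after each genotype mean was subtracted, among 2884 tested genes whose mean reached 100 normalized counts. These r values share libraries and include replicate 1, and they are given as a description. For *ets-5* they were *bbs-8*, a BBSome gene (r = 0.985), *ola-1* (0.983), *mca-2*, a plasma membrane Ca2+ pump gene (0.981), F25G6.1 (0.980) and *che-13*, an intraflagellar transport gene (0.979). For *egl-13* they were C54C6.6 (0.934), D2013.6 (0.927), D1069.3 (0.927), the axon guidance gene *unc-69* (0.926) and *gcy-9* (0.922). For *daf-19* they were *lin-5*, a spindle gene (0.981), *rbf-1*, the rabphilin gene (0.961), *rhgf-2* (0.954), ZC443.4 (0.953) and *pqn-87* (0.951). The median r with *ets-5* was 0.85 over 7 BAG genes and 0.91 over 48 cilia genes, against 0.22 over all candidates. With *egl-13* the medians were 0.85, 0.72 and 0.20 for the same groups, and with *daf-19* they were 0.69, 0.80 and 0.29.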

How the data were processed

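For each of the 12 libraries, the authors filtered ribosomal reads with Bowtie2, trimmed with Trim Galore, aligned with STAR to WS255 (mapping quality of 20 or more) and used HTSeq, unstranded, for reads per gene. The deposited normalized counts, a signal unit, are those reads over a DESeq2 size factor, and the authors gave them for 22542 genes. The deposited TPM values cover 46766 genes, and the gene length the authors used is not given in the sources used here. The authors' deposited results table also holds mean normalized counts (signal), log2 fold changes, test statistics, p-values and q-values, and none of these values were used. Smart-seq2 does not tag molecules, so PCR copies count as reads and the counting errors given cover counting only. The replicates are separate biological preparations.

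Reads were recovered from the whole-number steps of the normalized counts (100% of values whole within 0.01 reads), giving 374550 to 8683395 per library, a ratio of 23.2. Over 30 pairs of same-genotype libraries the chi-square per gene was at least 5.40, so no library was counted as a copy. The lengths behind the deposited TPM were computed from the ratio of normalized count to TPM, scaled on 402 genes of 1 transcript, 99.5% of which came within 5% of their annotated length.

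Genotypes were compared with limma 3.58.1 (R 4.3.3, eBayes with the intensity trend) on log2(normalized count + 1), keeping genes that reached 1 CPM in 6 libraries, with Benjamini-Hochberg adjustment at 0.05. This scale understates the fold change of low genes. Single values were compared by 2-sided exact permutation tests over every assignment of the libraries (smallest p 0.00216), and relations by permutation (100000 resamples, SciPy 1.17.1). Positions are those of the deposited table on WS255, and exons and overlaps are from the Ensembl annotation of the same assembly. The model was tested on simulated data.

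Alternatives tried were a pseudocount of 0.1 or of 10, no filter, a filter at a mean of 100 normalized counts, TPM, quantile normalization, no trend, library weights, edgeR 4.0.16 and DESeq2 1.42.0 on recovered reads, a block for replicate number, libraries of at least 2000000 reads, and each library left out. The factors and the 20 gene lists were chosen with earlier results of these data known. The genes named were the 3 factors, *arcp-1*, in each list the called genes and the 3 of highest TPM, and for each factor the 5 genes nearest in r. Outside this rule, and chosen after their values were seen, are *gcy-9*, *gcy-31*, *gcy-33*, *flp-8*, *flp-10*, *unc-54*, *nphp-2*, *mks-1*, *pha-4*, *ceh-36*, *che-1* and *ahr-1*. So are *tax-2*, *tax-4*, *glb-5*, *lin-1* and *ttx-1*, and the overlapping genes C42D8.12 and *cal-5*. The symbols *ets-1*, *ets-2*, *ets-3*, *sox-1* and *tmem-237* matched no gene name used here. Promoter sequences were not used here.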

Additional observations from a re-analysis of the deposited data

Results flagged for a closer look

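Of 14 groups of 6 libraries examined for a library far from the others, 3 held one, where chance gives about 1 in 20 groups. *ets-5* in *arcp-1* mutant replicate 1, at 173 normalized counts, lay apart from the other 5 mutant libraries by 0.821 of the group's range on the log2 scale. In control replicate 1, at 390 normalized counts, *ets-5* lay apart from the other 5 controls by 0.826 of the range. These 2 libraries also had the lowest summed BAG gene TPM, the lowest *unc-54* TPM and the highest pharyngeal muscle sums. The part of those levels in the *ets-5* values was not tested. *egl-13* relative to the BAG gene mean was highest in control replicate 6, at -0.00308 on the log2(TPM + 1) scale, apart from the other controls by 0.695 of the range.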

How the results depend on the processing

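Over 26 alternatives none of the 3 factors was called. The log2 fold change of *ets-5* ran from -0.46 to 0.19 (adjusted p 0.731 to 0.997) and changed sign without *arcp-1* mutant replicate 1 (0.19), without replicate 1 of both genotypes (0.021) and without replicates 1 and 2 of both (0.035), the last 2 settings chosen after seeing the data. That of *daf-19* ran from -0.50 to 0.00075 (adjusted p 0.558 to 0.999), the upper value being that without replicates 1 and 2 of both genotypes, and that of *egl-13* from -0.51 to -0.18 (adjusted p 0.283 to 0.894). Leaving out each library gave -0.35 to 0.19 for *ets-5*, -0.51 to -0.18 for *egl-13* and -0.50 to -0.05 for *daf-19*, and, relative to the BAG genes, -0.28 to -0.06, -0.44 to -0.24 (-0.44, p = 0.0476 by exact permutation, without *arcp-1* mutant replicate 1) and -0.43 to -0.15. The count of called genes was 99 among genes whose mean reached 100 normalized counts, 484 with library weights, 404 with DESeq2, 110 with libraries of at least 2000000 reads, 371 without replicate 1 of both genotypes and 124 to 329 leaving out each library. The count of BAG genes was 1 with library weights, DESeq2, without replicate 1 of both and without replicates 1 and 2 of both, and 0 to 1 leaving out each library. The count of cilia genes was 23 with library weights, 14 with DESeq2, 0 with libraries of at least 2000000 reads, 23 without replicate 1 of both, 23 without replicates 1 and 2 of both, and 3 to 24 leaving out each library. Fewer samples enter the fits that leave libraries out, and the cause of the other shifts was not tested. The libraries of at least 2000000 reads, which gave the -0.46 of *ets-5*, include mutant replicate 1 but not control replicate 1. *che-3* and *osm-1* were called in 25 of 26 alternatives, *che-2* in 24 and *arcp-1* in 15. The labels do not say whether same-numbered libraries were prepared together, and a shared preparation was not tested. Same-numbered libraries' deviations correlated by 0.04 to 0.32, with 2 of 6 pairs best matched by number. A rule set before the fits were compared asked for a correlation over 0.1 in every pair. It was not met, so the block was kept only as an alternative. With the replicate number as a block, 291 genes (2.41%), 2 BAG genes (*flp-17* and *flp-19*) and 19 cilia genes were called. Under the block *egl-13* had a limma adjusted p of 0.283 and an unadjusted p of 0.0290, where 14% of all genes had an unadjusted p under 0.05. It was lower in *arcp-1* mutants at 6 of 6 numbers, as were 4.83% of all genes. Depth limited the low genes, of which *egl-44* had as few as 1 read in a library.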
